A study of Mus musculus with 2 samples.

Results

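The S100 proteins are small calcium-binding proteins that share a pair of EF-hand loops, and 8 of their genes were followed here in bone marrow derived macrophages: S100a1, S100a4, S100a6, S100a8, S100a9, S100a10, S100a11 and S100a13. They were taken by name from the 19863 genes that had a row with a single annotated symbol in the deposited table of 25917 rows, and where a gene had several rows the row with the highest mean over both arrays was kept. Bone marrow of mice aged 8 weeks had been grown into macrophages with the help of medium taken from L929 fibroblasts, a source of the growth factor M-CSF. Total RNA was hybridised to whole-transcript Affymetrix arrays, with 1 array for the control and 1 for the culture labelled as lacking beta-catenin, which is called the deficient-labelled array. Not given in the sources used here are the mouse strain, the deleted allele, what drives its deletion, the control's genotype and how many animals went into a culture.

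Most S100 proteins work as dimers that open on binding calcium and then hold a partner protein. S100A8 and S100A9 pair with each other as calprotectin, an abundant cytosolic protein of neutrophils and monocytes that is released in inflammation and signals through the receptors TLR4 and RAGE. S100A10 and S100A11 bind annexins at membranes, and S100A4 and S100A6 bind cytoskeletal and adaptor proteins.

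Values are RMA levels on the log2 scale, so a difference of 1 is 2-fold. Each difference was taken as the deficient-labelled array minus control. With 1 array in each group there is no replicate error and no test, and every difference is one between these arrays. A gene was counted by size, at least 1.5-fold or at least 2-fold apart, if the higher of its values reached 7.28, which is the table's overall median and is called the floor. It was reached by 10657 genes, and all 8 S100 members lay above it in both arrays. Levels of different genes come from different probes and were not ranked against each other. Fewer cells of a type and less RNA per cell cannot be told apart in such samples.

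Ctnnb1, the gene of beta-catenin, had a level of 11.29 in control and 11.44 in the deficient-labelled array, so it was not lower there. Which part of the gene was deleted is not given, and probes outside that part check nothing. All directions below rest on the label. The macrophage genes Adgre1 (12.23 in both arrays), Csf1r (12.25 and 12.35) and Cd68 (12.71 and 12.82) were bright and nearly level. They were picked after their values were seen, from 8 macrophage markers whose differences ran from -0.38 (Lyz2) to 0.78 (Fcgr1). Of these 8, 7 were within 1.5-fold.

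The family split. S100a8 and S100a9 were more than 2-fold higher in the deficient-labelled array, S100a4 was 1.62-fold lower and S100a1 was 1.46-fold lower, while the other 4 members lay between -0.25 and 0.12. At 1.5-fold, 3 of 8 members were apart in either direction, beside 16.4% of all genes at or above the floor. Of these 3, 2 were higher, beside 7.54% of all genes, and 1 was lower, beside 8.81%. At 2-fold, 2 members were apart, beside 4.54% of all genes, and both were higher, beside 2.96%, with 0 lower, beside 1.59%. The lower count of 1 is near its background share. The median member difference was -0.037, against -0.08 over all genes, but it became slightly positive once the columns were centred or quantile-normalized or a loess curve was removed.

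**Figure D1:**
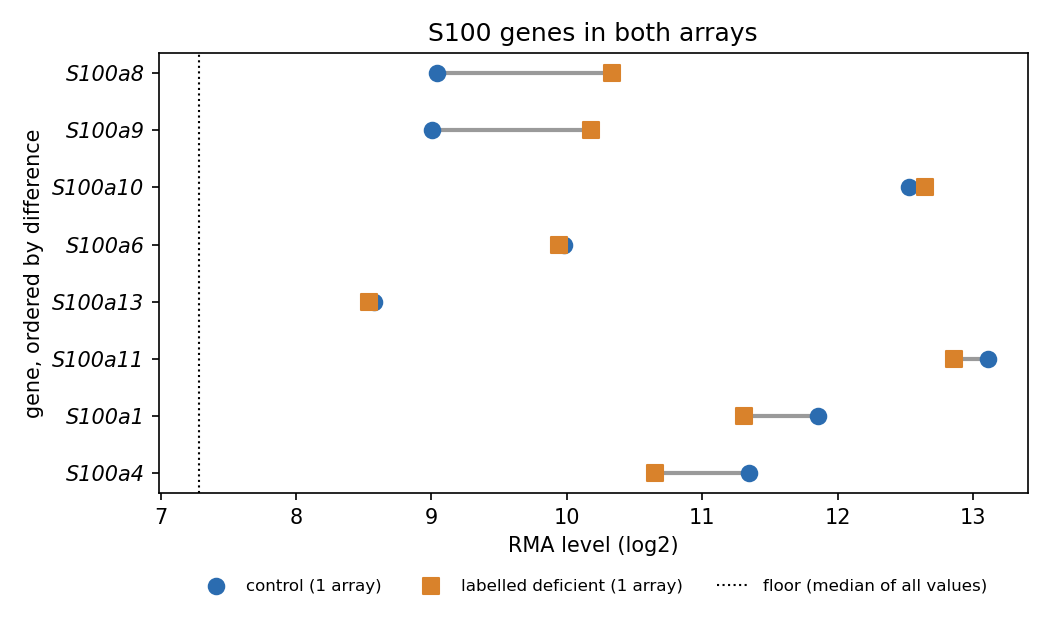
RMA level (log2) of the 8 S100 genes in the control array (circles) and the deficient-labelled array (squares), with a grey line joining the values of a gene and a dotted line at the floor of 7.28. S100a8 and S100a9 move right from about the same control level, S100a4 and S100a1 move left, and the markers of S100a6, S100a13 and S100a10 nearly touch.

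S100a8, the gene of the smaller chain of calprotectin, once called MRP8, had a level of 9.04 in control and 10.34 in the deficient-labelled array. That is 2.46-fold, or 1.30 on the log2 scale. Among 2493 genes whose mean level lay within 0.5 of its own, 41 had a larger positive difference. S100a9, the gene of the larger chain, once called MRP14, had a level of 9.004 in control and 10.18 in the deficient-labelled array. It was thus 2.26-fold higher there (1.18 on the log2 scale), and 46 of 2604 genes of like level had a larger one. Both genes were high in the same array, and their differences were only 0.12 apart.

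Because this pair was higher together, and S100a4, which lies near it on the same chromosome, was lower, the 250 bases before the annotated start of each are shown from RefSeq on the build GRCm38.p6, 5′ to 3′ on the strand of the gene. Capitals mark TATAAA, the TATA box, and TTNCNNAA, a form of the site bound by the C/EBP factors that act in myeloid cells, on either strand.
S100a8, chr3:90668821-90669070, plus strand: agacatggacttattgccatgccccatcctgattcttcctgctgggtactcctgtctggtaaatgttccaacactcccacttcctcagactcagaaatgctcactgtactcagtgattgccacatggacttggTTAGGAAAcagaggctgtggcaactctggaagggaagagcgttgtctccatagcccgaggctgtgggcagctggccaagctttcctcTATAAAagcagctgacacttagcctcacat
S100a9, chr3:90695722-90695971, minus strand: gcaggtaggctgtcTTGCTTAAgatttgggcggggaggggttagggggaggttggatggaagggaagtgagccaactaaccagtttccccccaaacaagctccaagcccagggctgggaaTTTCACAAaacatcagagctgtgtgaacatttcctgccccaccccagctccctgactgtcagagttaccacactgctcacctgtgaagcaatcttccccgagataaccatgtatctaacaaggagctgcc
S100a4, chr3:90603520-90603769, plus strand: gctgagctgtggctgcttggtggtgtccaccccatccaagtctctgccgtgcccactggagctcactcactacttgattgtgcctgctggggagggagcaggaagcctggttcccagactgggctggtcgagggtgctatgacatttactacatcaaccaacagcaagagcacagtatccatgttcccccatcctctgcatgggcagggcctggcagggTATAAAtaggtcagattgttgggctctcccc
The marked matches do not overlap each other in these sequences. In S100a8 the C/EBP-type match TTAGGAAA begins 117 bases before the start and lies on the opposite strand, and the TATA box begins 30 bases before it. S100a9 has C/EBP-type matches that begin 236 and 130 bases before the start, TTGCTTAA and TTTCACAA, and its TATAAA begins at the annotated start itself, just past the printed stretch. S100a4 has a TATA box 31 bases before the start and no C/EBP-type match.

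Such matches are common and describe letters only. Over 32851 promoter windows of 300 bases, which run from 250 before to 50 after a start, 40.7% held TTNCNNAA and 13.6% held TATAAA on either strand. Of the 7 members with a window, 2 held the C/EBP-type motif, S100a8 and S100a9, and 3 held the letters TATAAA. In S100a9 the TATAAA match lay at the annotated start itself, not before it. CTTTGA or CTTTGT, cores of the site bound by TCF/LEF, the DNA-binding partners of beta-catenin, stood in 31.2% of all windows and in those of S100a8 and S100a11. GAGGAA, the core read by the myeloid factor PU.1, stood in 28.3% of all windows and in those of S100a4, S100a8 and S100a11. The AP-1-type motif TGANTCA stood in 7.81% of all windows and, among members, in that of S100a11, where TGAGTCA begins 136 and 38 bases before the start.

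S100a4, which binds non-muscle myosin and is known from motile and mesenchymal cells, had a level of 11.34 in control and 10.65 in the deficient-labelled array. Its value of -0.69 for deficient minus control was the lowest of the family, and 53 of 1089 genes of like level had a lower one. It kept its direction and stayed past 1.5-fold under each alternative tried, with differences from -0.69 to -0.62. S100a4 also goes by the name fibroblast-specific protein. Of 11 fibroblast and stromal markers at or above the floor, 10 were higher past 1.5-fold in the deficient-labelled array, beside 7.54% of all genes. The lower count was 0, beside 8.81%. Of the 11, 2 reached the floor through the deficient-labelled array only, so the floor fixed their direction. The part of such cells in the S100a4 level was not tested. S100a6, or calcyclin, had a level of 9.98 in control and 9.94 in the deficient-labelled array. Its difference of -0.036 became positive with centred columns, with quantile normalization and after loess, so it has no direction here.

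S100a10, which forms a complex with annexin A2 at the plasma membrane, had a level of 12.53 in control and 12.64 in the deficient-labelled array. Its difference of 0.12 is 1.09-fold, and 69 of 215 genes of like level had a larger one. S100a11, a partner of annexin A1, was read by 2 rows that did not give the same picture. The row with the higher mean had 13.11 in control and 12.86 in the deficient-labelled array, a difference of -0.25. The other row had 12.81 and 12.83, a difference of 0.018. S100a11 has a pseudogene in RefSeq, and where the probes of each row lie was not examined, so the direction of S100a11 is not settled.

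S100a1, best known as a regulator of calcium cycling in muscle, had a level of 11.86 in control and 11.31 in the deficient-labelled array. Its difference, -0.55, lay just inside the 1.5-fold line of 0.58, as it did under each alternative tried (-0.55 to -0.47), and 34 of 611 genes of like level had a lower one. S100a13, which takes part in the export of FGF1 and interleukin-1 alpha, had 8.58 in control and 8.54 in the deficient-labelled array. Its difference of -0.039 turned positive under centring, quantile normalization and loess. In RefSeq these genes lie head to head: their promoter windows overlap by 204 bases on opposite strands. The array rows of these genes differed by -0.55 for S100a1 and -0.039 for S100a13.

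**Figure D2:**
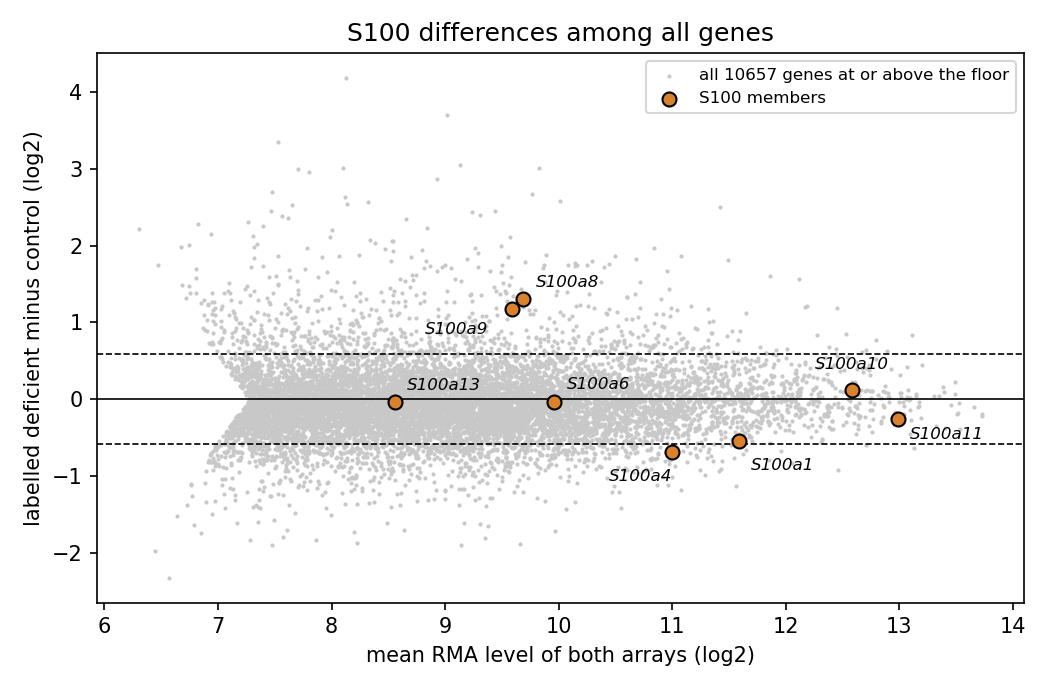
Difference between the deficient-labelled array and control (log2) against the mean level of both arrays (log2) for all 10657 genes at or above the floor (grey) and the 8 S100 members (orange), with dashed lines at 1.5-fold. S100a8 (1.30) and S100a9 (1.18) sit at the upper edge of the cloud, S100a4 (-0.69) and S100a1 (-0.55) near its lower edge, and the others inside it.

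The array named 9 further S100 genes, of which 7 were below the floor in both arrays, with values from 5.14 to 6.98. S100a16, a widely expressed member, was above it at 8.19 in control and 8.90 in the deficient-labelled array, which is 1.64-fold higher. S100a7a, the mouse relative of psoriasin, stood at 7.29 in control, at the edge of the floor, and at 6.66 in the deficient-labelled array. Its difference of -0.64 was within 1.5-fold (-0.52) after loess, and it was below the floor when the floor was set on the mean or the columns were centred or quantile-normalized. In the list of other S100-type genes, which also holds the fused S100 proteins of skin, these were the only genes of 14 with a row that reached the floor. S100a2 was not in that list and was added after its values were seen, 6.17 in control and 5.56 in the deficient-labelled array.

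All 8 members lie on chromosome 3 in RefSeq, in 2 groups on either side of skin genes. Between S100a1 and S100a10 lie 62 other protein-coding genes, 50 of them with a row, and 4 of these reached the floor: S100a16, S100a7a and the cornified envelope genes Lce1h and Lce1k. S100a8 and S100a9 are direct neighbours in that order. S100a7a, the gene next to S100a8 on the other side, was dim and reached the floor through control only (-0.64). The 10 genes before S100a1 included 8 above the floor, with differences from -0.18 to 0.62, the highest being that of Snapin, a gene of vesicle fusion.

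**Figure D3:**
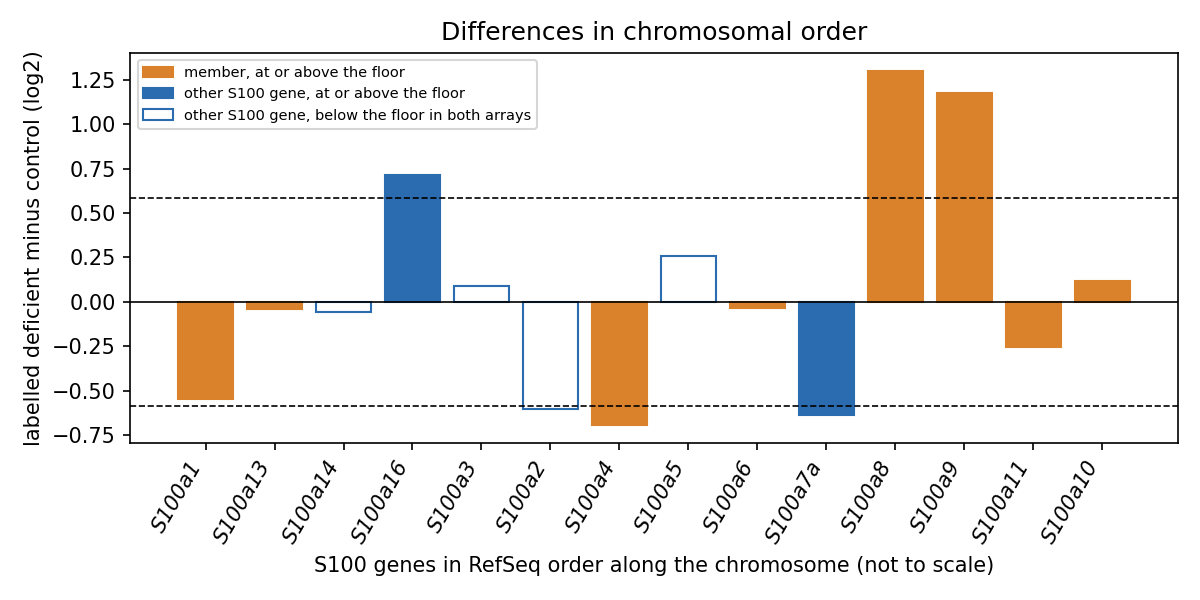
Difference between the deficient-labelled array and control (log2) for the S100 genes of chromosome 3 in RefSeq order, not to scale, with members in orange, other S100 genes in blue, open bars below the floor in both arrays and dashed lines at 1.5-fold. The tall bars of S100a8 (1.30) and S100a9 (1.18) stand beside the negative bar of S100a7a (-0.64). S100a7a reached the floor through control only, so the floor fixed its direction, and it was below the floor after centring or quantile normalization. The small bars of S100a6 and S100a13 take the other sign with centring, quantile normalization or loess, as that of S100a11 does with its other row.

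The partners that S100 proteins bind inside cells were mostly level, as were most genes at or above the floor. The floor kept 9 partner genes with a median of 0.15. Past 1.5-fold, 1 was higher, beside 7.54% of all genes, and 0 lower, beside 8.81%. These counts are near the background shares. Sugt1, an adaptor that binds S100A6, had 9.40 in control and 10.20 in the deficient-labelled array, the highest difference of the list (0.80). Cacybp, the calcyclin-binding protein, differed by 0.45. Myh9, the myosin heavy chain bound by S100A4, had 11.67 in control and 11.62 in the deficient-labelled array, and its sign turned under centring. Anxa2, partner of S100a10, differed by 0.31, and Anxa1, partner of S100a11, by 0.15. The annexin family had a median of 0.13 over 9 genes at or above the floor. Of these, 0 were 1.5-fold apart in either direction, beside 16.4% of all genes. Anxa3 was highest (0.54, and past 1.5-fold at 0.61 after centring) and Anxa11, a partner of S100A6, was lowest (-0.43).

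Receptors for released S100 proteins were nearly level too, again like most genes. All 9 genes of the receptors and their signal chain reached the floor, 1 of them through control only, and the median was 0.11. Past 1.5-fold, 1 gene was higher, beside 7.54% of all genes, and 0 lower, beside 8.81%. These counts are near the background shares. Tlr4, the receptor for calprotectin, had 9.26 in control and 9.33 in the deficient-labelled array. Ager, the gene of RAGE, stood close to the floor at 7.46 and 7.48. Bsg, or basigin, which binds S100A9, was highest, with 10.85 in control and 11.50 in the deficient-labelled array (0.66). The lymphocyte activation gene Cd69 was lowest (-0.58), with 7.82 in control and 7.24 in the deficient-labelled array. Cd69 was the gene that reached the floor through control only, so the floor fixed its direction. Thus the ligand genes S100a8 and S100a9 differed by over 2-fold while Tlr4 and Ager differed by 0.07 and 0.013.

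Among 8 transcription factor genes known from the control of S100a8 and S100a9 or of the myeloid lineage, 1 was at least 1.5-fold higher and 1 lower. These counts stand beside 7.54% and 8.81% of all genes and are near those shares. The median of the 8 factor genes, -0.044, turned positive under centring, quantile normalization and loess. Irf7, the interferon regulatory factor, had 9.25 in control and 11.03 in the deficient-labelled array. Cebpa, which drives granulocyte and monocyte commitment, had 9.67 in control and 8.96 in the deficient-labelled array. Cebpb, a C/EBP factor of mature macrophages, was level at 8.97 and 8.98.

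Markers of granulocytes and monocytes were higher in the same array as S100a8 and S100a9. Of 15 genes of neutrophils and their precursors, 11 were higher past 1.5-fold, beside 7.54% of all genes, and 0 lower, beside 8.81%. Their median difference was 1.30, and their mean level was 8.33 in control and 9.42 in the deficient-labelled array. Of the 15, 5 reached the floor through the deficient-labelled array only, so the floor fixed their direction. Retnlg, a neutrophil secreted protein and 1 of these, was highest (7.04 in control and 9.61 in the deficient-labelled array), and the granule peptide gene Camp was lowest (8.28 and 7.85). All 3 monocyte markers with a row were at least 1.5-fold higher, beside 7.54% of all genes, from F13a1 (1.34) to Plac8 (1.96). Their mean level was 8.66 in control and 10.32 in the deficient-labelled array. Fibroblast and stromal markers had a mean level of 8.43 in control and 9.82 in the deficient-labelled array, with Cxcl12 highest (2.87) and Thy1 lowest (0.18). These means cover the 11 at or above the floor, of which 2, Thy1 among them, reached it through the deficient-labelled array only. Over all 12 with a row the median difference was 1.29. Of 8 macrophage markers, 7 were within 1.5-fold, where 16.4% of all genes were apart in either direction. Fcgr1 was highest (0.78) and Lyz2 lowest (-0.38). RMA gives no detection call, so no marker can be said to be absent, and the part of these cell types in the S100 differences was not tested.

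**Figure D4:**
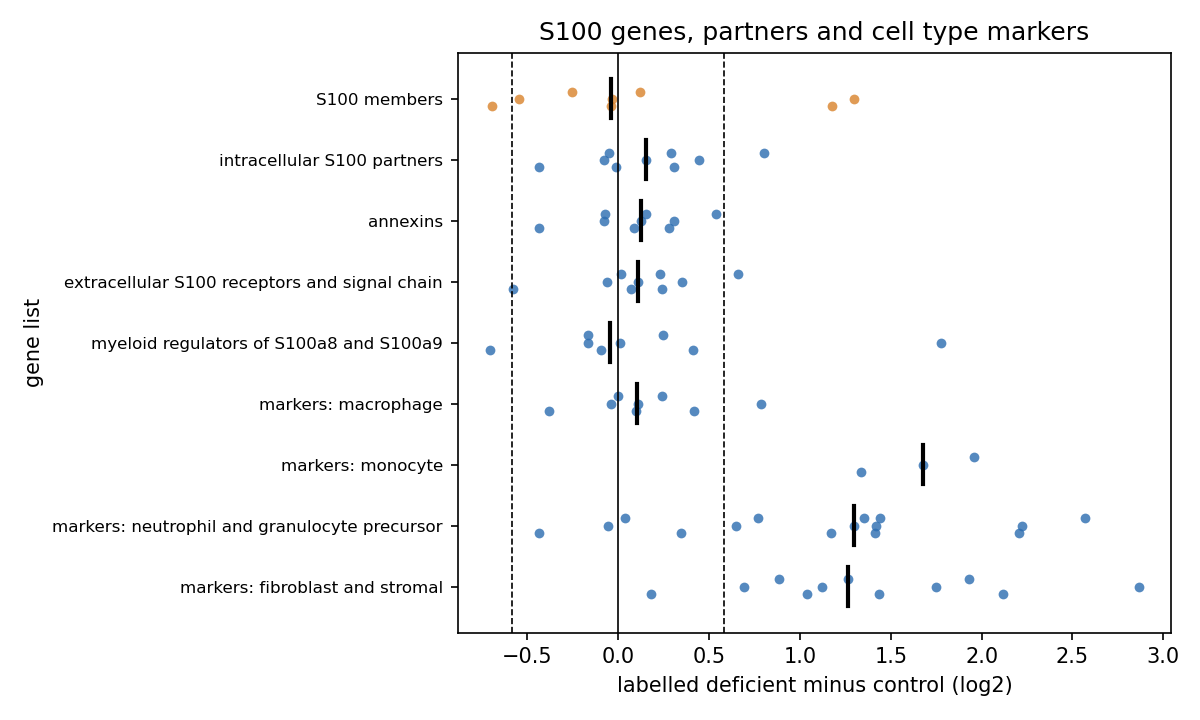
Difference between the deficient-labelled array and control (log2) for each gene at or above the floor, by list, with a black bar at the list's median and dashed lines at 1.5-fold. The S100 members (orange) spread from -0.69 to 1.30 around a median near 0 whose sign depends on the scaling, partner and receptor genes lie mostly between the lines, and the monocyte, neutrophil and stromal marker lists have medians of 1.68, 1.30 and 1.26.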

How the data were processed

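Expression was measured on 2 arrays, 1 per group. The authors deposited 1 log2 value per transcript cluster and array, made with RMA per the submitters' processing notes. RMA corrects background, normalizes between arrays and summarises probes. Not given in the sources used here: its version and settings, row filters, genome build and whether 1 run made both columns. The log2 scale was read from the values, which ran from 2.12 to 14.11.

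Symbols came from GEO's annotation of the platform: 21624 had 1 symbol, 1568 several and 2725 none. Of the first, 21537 had their Entrez ID in RefSeq (GRCm38.p6), and 0 symbols changed. Of 19863 genes, 947 had several rows. The S100 members and gene lists were chosen with earlier results of these data known. The lists were S100-type genes, intracellular partners, annexins, receptors, regulators, other EF-hand proteins and cell type markers. Genes named are the members, Ctnnb1, Anxa1, Anxa2, Cacybp, Myh9, Tlr4, Ager and the highest and lowest gene of each list at or above the floor. Any other gene named (Adgre1, Csf1r, Cd68, Cebpb, Lce1h, Lce1k, Snapin, Rcn1, Rcn2, Kit, Fcer1a, Gp9, Klf1, Epor, Cd209a) was chosen after its value was seen. With 1 array per group no test, error or p-value exists. A band of 0.5 on either side of a member's mean level gave its genes of like level. Alternatives were other floors, centring, quantile normalization, a loess curve (span 0.3, statsmodels 0.14.6), the mean of a gene's rows and, added after seeing the data, the other S100a11 row. Promoter windows came from RefSeq. The loess and quantile functions were tested on simulated data. The floor, the counts by size, the genes of like level and the motif search were not. Python 3.11.15 was used.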

Additional observations from a re-analysis of the deposited data

How the results depend on the processing

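The counts of S100 members apart, 3 at 1.5-fold and 2 at 2-fold, were the same under all alternatives. S100a8 (1.30 to 1.39) and S100a9 (1.18 to 1.26) stayed past 2-fold. Of 63 member values under alternatives, 56 kept their sign and their side of 1.5-fold, and 7, those of S100a6, S100a13 and S100a11 given in the text, changed sign. Many of the 56 could not move, so this count does not measure robustness. Another floor leaves a gene's difference as it was, and the settings on rows can alter only S100a11. Only centring, quantile normalization and loess could move the difference of every member. The median member difference was 0.036 after centring, 0.022 after quantile normalization and 0.047 after loess, and that of the regulators 0.029, 0.028 and 0.048. The EF-hand median was 0.029 after centring. The median of other S100-type genes, 0.037 over 2 genes, was -0.13 without a floor, 0.71 with the floor on the mean, 0.79 after centring and 0.78 after quantile normalization. For other S100-type genes, a set other than the main one passed in these settings, and 0 genes passed the floor at the 75th percentile (9.07), which S100a13 did not reach either. For the other medians the cause was not tested. Higher genes made up 46.1% of all genes 1.5-fold apart in the main setting, 58.7% after centring, 56.2% after quantile normalization, 60.1% after loess and 27.7% without a floor. No replicate could be left out. No paired analysis was possible because each group has 1 array. The number of arrays limits the precision.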

Other observations

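Other calcium-binding proteins with EF-hands were mostly level, with a median of -0.045 that turned positive after centring. The floor kept 27 of them. Past 1.5-fold, 2 were higher, beside 7.54% of all genes, and 1 lower, beside 8.81%. The higher count is near its background share. Both higher genes were reticulocalbins, calcium-binding proteins of the secretory pathway: Rcn3 had 8.63 in control and 10.37 in the deficient-labelled array, and Rcn1 had 8.54 and 9.92. Another reticulocalbin of the list, Rcn2, was level at 9.02 in control and 9.06 in the deficient-labelled array. The lowest was Gca, or grancalcin, a neutrophil and macrophage protein, at 8.69 in control and 8.09 in the deficient-labelled array, which lay within 1.5-fold after centring (-0.53), quantile normalization (-0.54) and loess (-0.51).

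Further marker lists gave few genes at or above the floor. The 3 mast cell and basophil genes that reached it, with differences from 0.92 (Mcpt8) to 2.31 (Prss34), did so through the deficient-labelled array only, so the floor fixed their direction. Over all 6 genes of that list the median was 0.51, with Kit at -0.05 and Fcer1a at -0.45. The 4 genes of the erythroid and megakaryocyte list that reached it are all platelet or megakaryocyte genes, from the chemokine Ppbp (2.51) to Pf4 (0.46), and Gp9 did so through the deficient-labelled array only. The erythroid genes with a row, Klf1 (-0.77) and Epor (-0.22), were below the floor. Of the dendritic cell genes, Itgax (1.53) reached it in both arrays, Cd209a (0.94) through the deficient-labelled array only and Ccr7 (-0.63) through control only. The median was 0.94 over these 3 and -0.17 over all 6. Ccr7 lay within 1.5-fold after centring, quantile normalization and loess. Both lymphocyte genes above the floor, Cd79b (0.32) and Cd4 (0.15), were within 1.5-fold, and the median over all 7 with a row was -0.51.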
